A study of Mus musculus with 10 samples.

Results

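Haploid and diploid mouse embryonic stem cells (ESC) were compared through 2 RNA-seq libraries, 1 whose genotype label reads wild type haploid and 1 labelled wild type diploid, both of strain 129SV. The genes described are the autosomal genes that reached at least 100 counts in either of these libraries. They number 11262 of the 54532 genes in the deposited table, and 10648 of them are protein coding. Of 50225 autosomal genes, 29363 had at least 1 count in either ESC library. The series holds 10 libraries in 8 groups, all of strain 129SV: 2 of ESC, 2 of epiblast stem cell-like cells (EpiLC, haploid, 1 labelled wild type and 1 labelled P53 -), 5 of epiblast stem cells (EpiSC, 2 haploid labelled P53 -, 2 diploid labelled wild type, 1 diploid labelled P53 -) and 1 of wild-type diploid mouse embryo fibroblasts (MEF). The parental origin of the haploid genome, the sex of the ESC lines, their passage, their sorting and their culture on or off feeder cells are not given in the sources used here. With 1 library on each side the comparison has no replicate check, so differences are given as sizes, with 95% intervals that cover counting error only and not the spread between cultures.

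Embryonic stem cells are derived from the pre-implantation epiblast and keep a naive pluripotent state through a network of transcription factors. Haploid ESC carry a single set of chromosomes, and in culture they tend to become diploid again, for which reason they are usually sorted by DNA content. The tumour suppressor p53, encoded by Trp53, responds to DNA damage and to errors of mitosis by activating genes of cell cycle arrest, apoptosis and metabolism. Mouse ESC are often grown on a layer of embryonic fibroblasts, whose RNA can enter a bulk library, so the MEF library is set beside every group of genes below. Counts scaled to the depth of a library do not show ploidy, because a change of all transcripts by the same factor leaves such values as they were. In bulk RNA, fewer cells of a type and less RNA per cell cannot be told apart.

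The total count was 17803421 for haploid ESC, 15899032 for diploid ESC and 18160992 for MEF, and the 10 libraries ranged from 15862113 to 18814003. At least 1 count was found for 28812 genes in the haploid, 25305 in the diploid and 23827 in the MEF library. Levels below are depth-scaled counts (CPM) after TMM scaling, which adjusts each library for its composition. Where a library had no count the bound used was 3 counts, which is 0.150 CPM in the haploid and 0.186 CPM in the diploid ESC library. Both ESC libraries held high levels of pluripotency genes that were at or near 0 in MEF: Nanog was at 575 CPM in the haploid library, 747 CPM in the diploid library and 0.319 CPM in MEF.

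Trp53 differed between the 2 ESC libraries although both are labelled wild type, and this stands before all other results. Trp53 (11:69580359-69591873, mm10) was at 28.5 CPM in the library labelled wild-type haploid and at 375 CPM in the diploid library, which is 13.2-fold lower (95% interval 12.1 to 14.4). In the other libraries labelled wild type it was at 129 CPM in MEF, 356 CPM in haploid EpiLC, and 36.9 and 199 CPM in the diploid EpiSC. In the libraries labelled P53 - it was at 32.9 CPM in haploid EpiLC, 50.5 and 61.8 CPM in haploid EpiSC, and 2.17 CPM in diploid EpiSC. The haploid ESC library therefore lay below 3 of the 4 libraries labelled P53 -, and the levels under the 2 labels overlapped. Wrap53, which overlaps Trp53 on the opposite strand, was at 25.3 CPM in haploid and 42.5 CPM in diploid ESC. Whether counting used the strand was not stated in the labels or processing notes, and reads of these neighbours cannot be told apart. The name haploid ESC library is used below for the library so labelled.

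Between the libraries, 1364 of the 11262 genes (12.1%) were at least 2-fold higher in haploid ESC and 963 (8.55%) were at least 2-fold lower. The median log2 ratio over all members was -0.06, and the 5th and 95th percentiles were -1.26 and 2.08. Most genes, 8935 (79.3%), lay within 2-fold. At least 4-fold higher were 594 genes (5.27%) and at least 4-fold lower 183 (1.62%). The diploid library had no count for 34 of the higher genes, while 1 of the lower genes had no count in the haploid library. Protein-coding genes made up 1305 of the higher and 832 of the lower genes.

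The order of these counts turned among genes well counted in both libraries. A gene that reached the minimum in 1 library alone is likely to be high there. Through the haploid library alone 1176 genes entered, 835 of them at least 2-fold higher, and through the diploid library alone 369, of which 269 were at least 2-fold lower. Among the 9717 genes with at least 100 counts in both libraries, 529 (5.44%) were at least 2-fold higher and 694 (7.14%) at least 2-fold lower, with a median log2 ratio of -0.11. Scaling by total counts alone, in place of TMM, shifted the median of all members by 0.15 and gave 1625 higher and 702 lower genes, so that 69.8% of the differing genes were higher, against 58.6% with TMM. At the edge of the count minimum, the 464 genes whose larger count was 100 to 124 had a median log2 ratio of 0.05, and the 526 genes at 80 to 99 counts, just outside, had a median of 0.06.

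**Figure D1:**
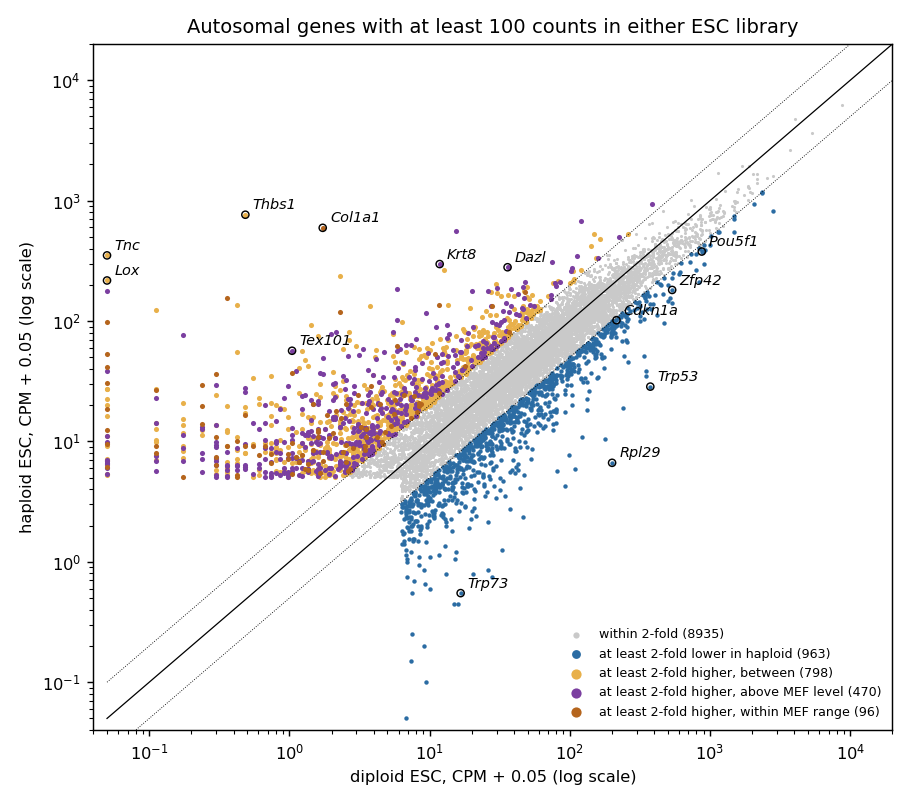
Level of each of the 11262 genes in the diploid (x axis) and haploid (y axis) ESC library, in CPM plus 0.05 on log scales, with lines at equality and at 2-fold. Blue marks lower genes, and the other colours mark higher genes by their relation to the MEF level. Tnc, Lox and Thbs1 sit at the far left, near 0 in diploid ESC, and Trp53, Trp73 and Rpl29 lie far below the line of equality.

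The marker genes Tnc, Lox and Thbs1, all of the fibroblast matrix list, were nearly absent from diploid ESC. Tnc (4:63959785-64047015), the matrix glycoprotein tenascin C, was at 351 CPM in haploid ESC, had no count in diploid ESC, and was at 2222 CPM in MEF. That is at least 1882-fold higher in the haploid library, taking 3 counts as the floor of the diploid library. Lox (18:52516069-52529867), the lysyl oxidase that crosslinks collagen and elastin, was at 217 CPM in haploid ESC, without a count in diploid ESC and at 2069 CPM in MEF, at least 1165-fold higher. Thbs1 (2:118111876-118127133), the matricellular protein thrombospondin 1, was at 764 CPM against 0.435 CPM, 1756-fold higher (852 to 4368), with 3068 CPM in MEF. In these 3 genes the haploid ESC library lay nearer to MEF than to diploid ESC on a log scale.

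The same genes were high in the EpiSC libraries and low in EpiLC. Tnc was at 1395 and 600.0 CPM in the haploid EpiSC, at 937 and 195 CPM in the diploid wild-type EpiSC and at 282 CPM in the diploid EpiSC labelled P53 -, but at 0.129 CPM in the wild-type EpiLC and 57.3 CPM in the EpiLC labelled P53 -. Lox was between 23.9 and 211 CPM in the 5 EpiSC libraries and at 0.710 and 16.2 CPM in EpiLC. Thbs1 was between 518 and 1089 CPM in EpiSC and at 26.6 and 51.4 CPM in EpiLC. Haploid ESC lay within the EpiSC range in Tnc and Thbs1 and just above it in Lox, and diploid ESC lay below every other library in all 3.

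The MEF level was set beside each difference as the quotient of the haploid excess (haploid minus diploid CPM) and the MEF CPM. Over the 46 genes of the fibroblast matrix and collagen lists with at least 10 CPM in MEF the median quotient was 0.0255, that is 2.55% of the MEF level. The quartiles were 0.00871 and 0.0766, the lowest value was -0.166 in Col18a1 and the highest was 3.51. Fibroblast genes thus differed widely from each other in this quotient, and 42 of the 46 were above 0. The part of fibroblast RNA in the differences between the ESC libraries was not tested. Summed over the 46 genes the haploid ESC library held 5531 CPM, the diploid 2391 CPM and MEF 114700 CPM. Most of the diploid sum came from Fn1 and Col18a1, which were both lower in haploid ESC. None of the 46 was without a count in haploid ESC, and 9 were in diploid ESC. The median level of these genes was 29.8 CPM in haploid and 1.49 CPM in diploid ESC, 663 CPM in MEF, 2.55 and 5.51 CPM in the EpiLC libraries, and between 17.0 and 73.0 CPM in the EpiSC libraries.

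A higher gene was marked as within the MEF range when its quotient was at most 0.0509, 2 times that median, and as above the MEF level when its excess was larger than the whole MEF level. Of the 1364 higher genes, 96 (7.04%) were within the MEF range, 798 (58.5%) lay between, and 470 (34.5%) were above the MEF level. MEF exceeded haploid ESC in 787 of the 1364 higher genes (57.7%). It exceeded diploid ESC in 145 of the 963 lower genes (15.1%), beside 45.1% of all members. The lower genes are high in diploid ESC by selection, so a smaller share there is built in. The share of the higher genes was taken against haploid ESC and cannot be set beside these 2 shares. Among the 704 members with at most 1 CPM in MEF, 232 (33.0%) were at least 2-fold higher and 198 (28.1%) at least 2-fold lower. Those 232 genes had a median of 11.1 CPM in haploid ESC and 2.05 CPM in diploid ESC. Their median was 1.77 and 3.998 CPM in the EpiLC libraries and between 0.186 and 0.402 CPM in the EpiSC libraries.

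**Figure D2:**
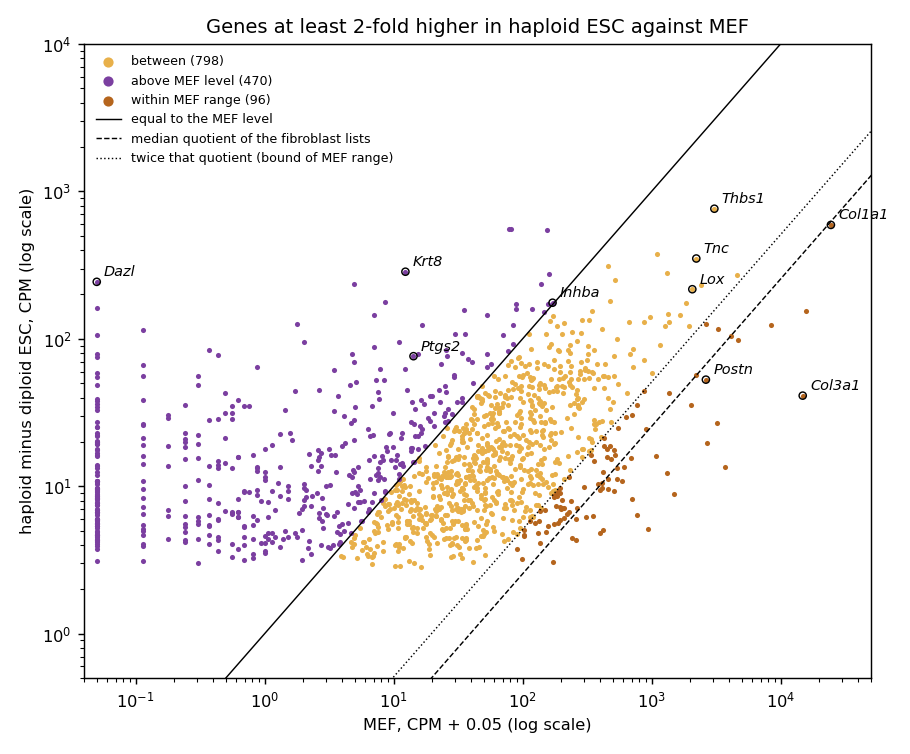
Haploid minus diploid ESC level in CPM (y axis) against the MEF level in CPM plus 0.05 (x axis), both on log scales, for the 1364 genes at least 2-fold higher in haploid ESC. Col1a1, Postn and Col3a1 lie at or below the bound of the MEF range, Tnc, Lox and Thbs1 between it and the line of equality, and Dazl, Krt8 and Ptgs2 above that line.

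Of the 33 gene lists set beside the comparison, collagens and fibroblast matrix genes had the highest medians. For every list, counts of higher and lower members are to be read against 12.1% and 8.55% of all members. Among all members with 100 counts in both libraries the shares were 5.44% and 7.14%. Of the 15 collagen genes listed, all 15 entered the comparison, 14 were at least 2-fold higher and 0 were lower, with a median log2 ratio of 5.66 beside -0.06 over all members. Of these, 11 had fewer than 100 counts in diploid ESC, and of the 4 with 100 counts in both libraries 3 were higher. Col1a1 and Col1a2, the chains of fibrillar collagen I, were at 594 CPM against 1.68 CPM (354-fold, 243 to 538) and at 154 CPM against 0.311 CPM (496-fold, 212 to 1527). MEF held 24560.2 CPM of Col1a1, so that its excess was 0.0241 of the MEF level, and for Col3a1, at 41.2 CPM in haploid ESC and 14849 CPM in MEF, it was 0.00277. The basement membrane chains Col4a1 and Col4a2 were 6.30-fold (5.70 to 6.97) and 10.05-fold (8.75 to 11.6) higher. Col18a1 was at 231 CPM in haploid and 287 CPM in diploid ESC. Subtracting 0.0255 of the MEF level from the haploid library, an alternative added after the data were seen, took the median log2 ratio of the list to 0 and turned Col1a1 and Col1a2 to -4.01 and -1.93. That share is the median quotient of the collagen and fibroblast matrix lists themselves. The fall of the collagen median was therefore built in and shows nothing about a source.

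Of 33 fibroblast matrix genes matched, 32 are autosomal and 24 entered the comparison, of which 22 were at least 2-fold higher and 0 lower (median log2 ratio 4.24). Only 6 had 100 counts in both libraries, 4 of them higher. Of the 22, 11 were within the MEF range, 10 between and 1 above the MEF level. The bound of that range was set from the quotients of this list and of the collagens, so a large share within it is built in. Postn, which encodes the matrix protein periostin, was at 52.9 CPM without a count in diploid ESC (at least 284-fold) and at 2637 CPM in MEF, a quotient of 0.0201. Dcn, the small proteoglycan decorin, was at 18.6 CPM without a count in diploid ESC (at least 99.9-fold) and at 426 CPM in MEF. Fn1, fibronectin, went the other way, at 1020.0 CPM in haploid and 1879 CPM in diploid ESC, 1.84-fold lower (1.81 to 1.88), although MEF held 7304 CPM.

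Genes of the contractile cytoskeleton and of the serum response were also on the higher side. Of 17 members 10 were at least 2-fold higher and 0 lower (median log2 ratio 1.29), and of the 11 with 100 counts in both libraries 4 were higher (median 0.48). In MEF 14 of the 17 were higher than in haploid ESC. Acta2, smooth muscle actin, was at 123 CPM against 0.0621 CPM, a single count, which gives a ratio of 1979 with an interval of 355 to 78183. It was at 1965 CPM in MEF. Ctgf, a matricellular target of YAP and of transforming growth factor beta, was at 178 CPM against 26.0 CPM (6.85-fold, 6.19 to 7.601) and at 146 CPM in MEF.

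Outside the matrix genes, some of the largest differences exceeded the whole MEF level. Inhba, the beta A subunit of activin A, was at 176 CPM in haploid ESC without a count in diploid ESC (at least 943-fold) and at 171 CPM in MEF. Ptgs2, the inducible cyclooxygenase, was at 76.4 CPM against 0.124 CPM, 2 counts, a ratio of 615 (169.9 to 5081), with 14.2 CPM in MEF. Csf1, the macrophage growth factor, was at 135 CPM against 0.373 CPM (361-fold, 166 to 985), here with a higher level in MEF, 327 CPM. Each of these 3 genes was detected in all 5 EpiSC libraries, Inhba between 7.19 and 115 CPM and Ptgs2 between 16.6 and 212 CPM. Their levels in the wild-type EpiLC were 0.0645 CPM for Inhba and 0.710 CPM for Ptgs2.

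The p53 target genes were the list with the lowest median of the 33. Of 33 listed genes matched, 32 are autosomal and 30 entered the comparison. None of the 30 was at least 2-fold higher and 18 were at least 2-fold lower, beside 12.1% and 8.55% of all members, and 25 of 30 ratios were below 0 (median log2 ratio -1.09). Of the 28 with 100 counts in both libraries, 16 were lower. This list was drawn up with the level of Trp53 in these libraries known, so it is not independent evidence of its direction. Trp53inp1, a p53-induced regulator of autophagy and apoptosis, was at 38.5 CPM in haploid and 347 CPM in diploid ESC, 9.03-fold lower. Ccng1, cyclin G1, was at 50.7 CPM against 339 CPM, 6.69-fold lower. Lower as well were Sesn2, a stress-induced inhibitor of mTORC1 (4.63-fold), Zmat3, an RNA-binding regulator of splicing (4.31-fold), Bbc3, which encodes the apoptosis inducer PUMA (3.55-fold), and Bax, the effector of mitochondrial permeability (2.55-fold).

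Cdkn1a (17:29090976-29100727), which encodes the cyclin-dependent kinase inhibitor p21, differed by less: 102 CPM in haploid and 215 CPM in diploid ESC, 2.12-fold lower (2.004 to 2.24). It was at 12.02 CPM in haploid EpiLC labelled P53 - and at 4.34 CPM in diploid EpiSC labelled P53 -, below the haploid ESC library. Haploid EpiSC labelled P53 - held 71.3 and 104 CPM, and the libraries labelled wild type between 70.8 and 215 CPM. Mdm2, the ubiquitin ligase that degrades p53 and is itself a p53 target, was at 101 CPM against 171 CPM, 1.69-fold lower (1.59 to 1.79). Members of the list on the other side of 0, none past 2-fold, included Perp, a desmosomal p53 target (19.03 against 10.004 CPM), and Pmaip1, which encodes NOXA (27.2 against 17.2 CPM).

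Summed over the 30 p53 targets the level was 1134 CPM in haploid and 2899 CPM in diploid ESC. It was 1039 CPM in haploid EpiLC labelled P53 - and 3249 CPM in haploid EpiLC labelled wild type. In EpiSC it was 1096 CPM in the diploid library labelled P53 -, 1469.9 and 1907 CPM in the haploid libraries labelled P53 -, and 1356 and 3178 CPM in the diploid libraries labelled wild type. MEF stood at 1656 CPM. The haploid ESC library was therefore within the range of the 4 libraries labelled P53 -, and 1 of the EpiSC libraries labelled wild type was also within that range.

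Other genes of the p53 family and its regulators were 1 higher and 4 lower of 14 members (median log2 ratio -0.66). Of all members 12.1% were higher and 8.55% lower. Trp73, which encodes the p53 homologue p73, was at 0.499 CPM in haploid and 16.6 CPM in diploid ESC, 33.2-fold lower (17.8 to 70.1), and at 24.01 CPM in the wild-type EpiLC. Mdm4, the second negative regulator of p53, was 4.83-fold lower and Chek2, a checkpoint kinase upstream of p53, 2.15-fold lower. Cdkn2a, whose ARF product inhibits Mdm2, was higher at 38.0 CPM against 15.2 CPM (2.51-fold, 2.17 to 2.91).

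**Figure D3:**
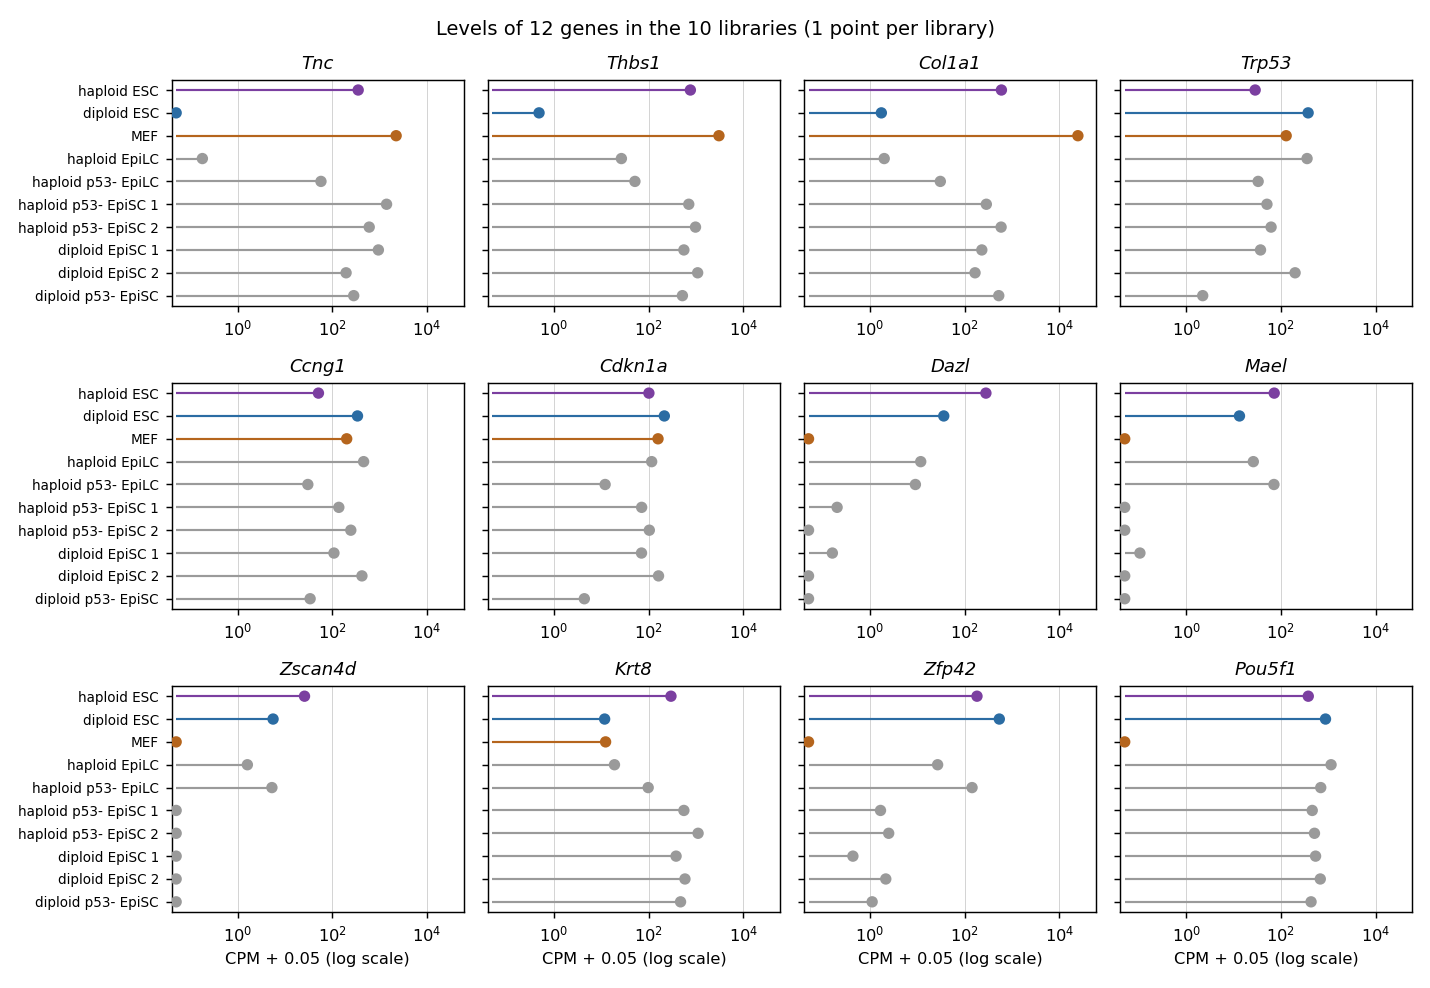
Level of 12 genes in each of the 10 libraries, in CPM plus 0.05 on a log scale, 1 point per library, with the 2 ESC libraries and MEF in colour. Trp53 in haploid ESC, at 28.5 CPM, lies beside the EpiLC labelled P53 - at 32.9 CPM, whereas Cdkn1a stays at 102 CPM against 12.02 CPM there, and Dazl is at 279.6 CPM in haploid ESC and without a count in MEF.

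The bases just upstream of 2 p53 targets that were lower in haploid ESC are shown because the p53 half-site, the decamer that p53 binds in pairs, occurs in them. The windows are the 250 bases before the RefSeq start of each gene (GRCm38.p6, the assembly of mm10), 5′ to 3′ on the strand of the gene, with matches to the half-site in capitals. The Cdkn1a window is chr17:29090729-29090978 on the plus strand and the Ccng1 window chr11:40755287-40755536 on the minus strand.
Cdkn1a: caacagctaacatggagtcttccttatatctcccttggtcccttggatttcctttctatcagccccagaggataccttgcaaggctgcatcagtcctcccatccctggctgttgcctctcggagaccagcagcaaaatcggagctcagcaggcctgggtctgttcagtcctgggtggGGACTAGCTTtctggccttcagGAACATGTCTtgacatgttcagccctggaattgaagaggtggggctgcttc
Ccng1: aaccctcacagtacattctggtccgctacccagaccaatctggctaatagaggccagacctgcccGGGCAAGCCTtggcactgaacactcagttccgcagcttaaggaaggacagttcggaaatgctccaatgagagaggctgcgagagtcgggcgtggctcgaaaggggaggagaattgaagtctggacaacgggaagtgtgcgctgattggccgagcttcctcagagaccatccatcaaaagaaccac
Cdkn1a held matches at positions -73 and -51 from the start and Ccng1 at -185. Of the p53 targets, 21 had such a window and 6 of these (28.6%) held a match on either strand, beside 1353 of 20477 windows of all genes (6.61%) and 483 of 8564 windows of the members (5.64%). Among the other lists searched it was found in 4 of 8 windows of the 2-cell-like genes, all 4 of genes at least 2-fold higher, in 2 of 26 of the germline genes and in 0 of 13 of the naive genes. The 6 were Bax, Ccng1, Cdkn1a, Ckap2, Ei24 and Mdm2, of which all but Mdm2 were at least 2-fold lower. A match is a description of the letters, not a measured site, and neither motif searched here can contain the other.

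Genes of naive pluripotency were lower in haploid ESC on balance, by about 2-fold. All 19 autosomal genes listed entered the comparison, 10 were at least 2-fold lower and 1 higher, and 17 of 19 ratios were below 0 (median log2 ratio -1.002). Zfp42, a marker of the naive state also called Rex1, was at 181 CPM in haploid and 537 CPM in diploid ESC, 2.96-fold lower (2.85 to 3.08). Klf4 and Klf2, Krüppel-like factors of the naive network, were 2.41-fold and 2.37-fold lower. Esrrb, an orphan nuclear receptor of the same network, was at 357 CPM against 735 CPM, 2.06-fold lower (1.997 to 2.12). Tcl1, a coactivator of AKT, was 3.35-fold lower, and Tfcp2l1, at 509 CPM against 1019.9 CPM, lay at the bound of 2-fold.

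Nanog, Tbx3 and Klf5 were within 2-fold, with log2 ratios of -0.38, -0.26 and 0.15. The exception on the higher side was Dppa3, the maternal factor Stella, at 15.88 CPM against 4.97 CPM (3.19-fold, 2.49 to 4.14). Of 14 general pluripotency genes 4 were at least 2-fold lower and 1 higher (median log2 ratio -0.56). Pou5f1, which encodes OCT4, was at 378 CPM against 873 CPM, 2.31-fold lower (2.25 to 2.38), and L1td1, an RNA-binding protein of ESC, 3.31-fold lower. Sox2 was at 340 CPM against 447 CPM. Epcam, an adhesion molecule of epithelial cells, was higher at 133 CPM against 37.8 CPM (3.53-fold, 3.23 to 3.86). In MEF, 11 of the 19 naive genes were at most at 1 CPM, Pou5f1 had no count and Sox2 was at 6.69 CPM.

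Both ESC libraries stood above the other libraries in naive genes. Summed over the 19 genes the level was 3551 CPM in haploid and 6542 CPM in diploid ESC, 1241 and 2141 CPM in EpiLC, between 271 and 356 CPM in EpiSC and 326 CPM in MEF. Zfp42 was at most 2.42 CPM in the 5 EpiSC libraries. The haploid ESC library was lower than the diploid one and higher than the other 8.

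Genes of post-implantation epiblast lay on both sides of 0, 7 above and 7 below (median log2 ratio 0.08). Of 14 members 3 were at least 2-fold higher and 1 was lower, beside 12.1% and 8.55% of all members. The highest ratio was that of Krt18 (log2 ratio 4.95), a keratin also counted in the trophoblast list below. Of the 11 with 100 counts in both libraries 1 was higher and 1 lower, and there the median was below 0 (-0.44). Pou3f1, a POU factor of the formative epiblast also called Oct6, was at 12.2 CPM against 3.04 CPM (4.002-fold, 2.93 to 5.56). Foxd3, a forkhead factor of pluripotent and neural crest cells, was at 9.94 CPM against 43.5 CPM, 4.38-fold lower (3.73 to 5.15). Among 5 primitive streak genes that entered, Lefty1 and Lefty2, secreted inhibitors of Nodal that Nodal signalling induces, were 5.01-fold (4.15 to 6.10) and 4.93-fold (4.45 to 5.47) higher. Eomes, a T-box factor of mesendoderm and trophoblast, was 2.65-fold higher (2.24 to 3.15). Nodal itself was at 34.9 CPM against 72.3 CPM, 2.07-fold lower (1.88 to 2.28), and its coreceptor Tdgf1, also called Cripto, 2.32-fold lower. Lefty2 and Nodal had no count in MEF.

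Most germline genes that entered were higher in haploid ESC, and 19 of these 27 were at or below 1 CPM in MEF. In pluripotent cells these genes are held silent by promoter DNA methylation and by a variant Polycomb complex, in which the MGA and MAX proteins bind the letters CACGTG. Of 30 listed genes matched, 29 are autosomal and 27 entered the comparison, 19 were at least 2-fold higher and 0 were lower (median log2 ratio 2.43). Of the 17 with 100 counts in both libraries, 10 were higher (median log2 ratio 1.39). Of the 19, 18 were above the MEF level, and the exception was Tdrd7, at 52.7 CPM in MEF. The 27 genes summed to 1870.0 CPM in the haploid, 684 CPM in the diploid and 77.2 CPM in the MEF library.

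The bases before the start of 4 germline genes are shown because CACGTG, a palindrome that reads the same on both strands, lies in them. The windows are again the 250 bases before the RefSeq start on GRCm38.p6, 5′ to 3′ on the strand of the gene, with CACGTG in capitals. They lie at chr1:166238745-166238994 on the minus strand for Mael, chr3:40708621-40708870 on the plus strand for Slc25a31, chr12:111971309-111971558 on the plus strand for Tdrd9 and chr3:95559427-95559676 on the plus strand for Hormad1.
Mael: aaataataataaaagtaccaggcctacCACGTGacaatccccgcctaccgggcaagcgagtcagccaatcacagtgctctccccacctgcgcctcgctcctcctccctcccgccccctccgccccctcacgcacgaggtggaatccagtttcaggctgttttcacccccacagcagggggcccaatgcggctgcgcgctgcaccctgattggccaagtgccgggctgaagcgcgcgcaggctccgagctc
Slc25a31: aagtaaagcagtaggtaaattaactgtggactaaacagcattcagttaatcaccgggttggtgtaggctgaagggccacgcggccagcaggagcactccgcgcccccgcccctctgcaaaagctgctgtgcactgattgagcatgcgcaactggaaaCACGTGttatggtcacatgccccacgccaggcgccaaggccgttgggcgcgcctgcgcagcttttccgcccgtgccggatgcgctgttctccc
Tdrd9: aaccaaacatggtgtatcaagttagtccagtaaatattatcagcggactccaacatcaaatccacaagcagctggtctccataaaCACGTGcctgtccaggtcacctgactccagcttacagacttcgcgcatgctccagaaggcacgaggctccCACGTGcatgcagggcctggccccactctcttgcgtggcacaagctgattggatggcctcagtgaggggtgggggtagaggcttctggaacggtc
Hormad1: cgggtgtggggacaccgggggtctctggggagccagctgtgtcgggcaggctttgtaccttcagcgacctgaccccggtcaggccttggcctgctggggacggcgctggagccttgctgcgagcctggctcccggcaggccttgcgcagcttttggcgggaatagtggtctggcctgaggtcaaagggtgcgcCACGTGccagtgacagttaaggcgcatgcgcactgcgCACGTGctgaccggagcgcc
Mael, Slc25a31 and Tdrd9 were 5.44-fold, 16.6-fold and 14.8-fold higher in haploid ESC, whereas Hormad1 was at 13.4 CPM against 19.8 CPM. The letters CACGTG were found in 10 of 26 windows of the germline list (38.5%), beside 1317 of 20477 windows of all genes (6.43%) and 768 of 8564 windows of the members (8.97%). Among the 18 windows of genes at least 2-fold higher 9 held it, and among the other 8 windows 1 did, that of Hormad1. The other 6 genes with the letters were Brdt, Ddx4, Mov10l1, Stag3, Sycp1 and Sycp3.

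Dazl (17:50279395-50293636), an RNA-binding protein needed for germ cell development, was at 279.6 CPM in haploid and 35.9 CPM in diploid ESC (7.79-fold, 7.14 to 8.50), without a count in MEF. Ddx4, the germ cell helicase also called Vasa, was at 54.4 CPM against 9.69 CPM (5.61-fold, 4.74 to 6.68). Genes of the piRNA pathway, which silences transposons in germ cells, were on the same side. Mael was at 72.0 CPM against 13.2 CPM, Piwil2 at 78.3 CPM against 13.8 CPM, Mov10l1 at 91.9 CPM against 13.4 CPM and Asz1 at 27.9 CPM against 0.435 CPM. The synaptonemal complex genes Sycp1, Sycp2 and Sycp3, which pair chromosomes in meiosis, were 4.28-fold (3.78 to 4.86), 20.1-fold (12.7 to 33.7) and 4.14-fold (3.20 to 5.43) higher. Tex101, a surface protein of germ cells, was 56.9-fold higher (34.9 to 99.9) at 56.6 CPM.

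The 8 members within 2-fold included the meiosis genes Hormad1, Smc1b, Rec8 and Stra8. Stra8, the inducer of meiosis by retinoic acid, was at 38.0 CPM against 29.1 CPM. The germline genes were not all alike across libraries. Mael was at 71.0 CPM in the EpiLC labelled P53 - and 26.0 CPM in the wild-type EpiLC, while Dazl was at 9.002 and 11.7 CPM there. All 5 EpiSC libraries were at or below 0.151 CPM for Dazl and at or below 0.0547 CPM for Mael.

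Genes of the 2-cell-like state, in which a small share of ESC transcribe genes of the cleaving embryo, were higher as well. Of 26 genes listed 24 matched and 14 entered the comparison, 13 were at least 2-fold higher and 0 lower (median log2 ratio 3.25), all 13 above the MEF level. However 13 of the 14 entered through the haploid library alone, and the gene with 100 counts in both libraries was Rnf213 at a log2 ratio of 0.67. Zscan4d, of the family that marks this state, was at 25.7 CPM in haploid and 5.53 CPM in diploid ESC (4.65-fold, 3.71 to 5.89). Zscan4c was 7.70-fold higher (5.62 to 10.8). Usp17le, a ubiquitin peptidase of a family copied in tandem, was at 38.7 CPM against 1.06 CPM (36.6-fold, 22.7 to 63.1). Zscan4d had no count in MEF or in any EpiSC library and was at 1.55 and 5.23 CPM in EpiLC. The Zscan4 and Usp17l genes are near-identical copies, whose reads the counting could split, so their single values are uncertain. Of 8 maternal genes of the oocyte that entered, 3 were at least 2-fold lower and 2 higher. Khdc3 and Ooep, of the subcortical maternal complex, were 4.92-fold (4.15 to 5.88) and 4.40-fold (3.92 to 4.96) lower, while Nlrp14 was 4.52-fold higher (2.82 to 7.57).

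Trophoblast genes, which mark the outer lineage of the blastocyst, were on the higher side in all 12 members. Of 17 listed genes matched 16 are autosomal, and of the 12 that entered 9 were at least 2-fold higher, all 9 above the MEF level (median log2 ratio 1.74). Of the 6 with 100 counts in both libraries, 3 were higher. Krt8 and Krt18, keratins of simple epithelia, were at 297 CPM against 11.7 CPM (25.3-fold, 21.9 to 29.4) and at 184 CPM against 5.84 CPM (31.4-fold, 25.6 to 39.0). MEF held 12.3 and 8.61 CPM of them. Gata2, a zinc finger factor of trophoblast and blood, was 13.0-fold higher (9.44 to 18.4) at 32.3 CPM. Peg10, a retrotransposon-derived imprinted gene of the placenta, was at 672 CPM against 119 CPM (5.64-fold, 5.38 to 5.92). Tfap2c and Tead4, which ESC express too, were at log2 ratios of 0.32 and 0.48. The keratins are also epithelial genes of EpiSC: Krt8 was between 381 and 1111 CPM in the 5 EpiSC libraries and at 18.97 and 98.0 CPM in EpiLC.

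Of 11 extraembryonic endoderm genes 8 were at least 2-fold higher and 2 lower (median log2 ratio 1.65), but 8 of the 11 were also higher in MEF than in haploid ESC. Of the 7 with 100 counts in both libraries 4 were higher and 2 lower (median 1.04). Col4a1, Col4a2 and Pdgfra are counted here and also in the collagen or fibroblast matrix list. Gata4, a zinc finger factor of primitive endoderm, was at 5.94 CPM against 1.86 CPM with 4.91 CPM in MEF, and Amn, an endocytic receptor subunit of visceral endoderm, at 7.29 CPM against 0.994 CPM with 0.191 CPM in MEF. Apoe, the apolipoprotein, and Lamc1, the gamma chain of laminin, were 2.84-fold and 2.36-fold lower. Gata6, Sox17 and Sox7, the defining factors, had fewer than 100 counts in both ESC libraries and did not enter.

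Among signalling genes, negative regulators and early targets of the FGF-ERK pathway were higher in part. Of 16 members 7 were at least 2-fold higher and 0 lower (median log2 ratio 0.53), beside 12.1% and 8.55% of all members. Of the 11 with 100 counts in both libraries, 2 were higher, and there the median log2 ratio was -0.05. Spry4, an inhibitor of receptor tyrosine kinase signalling, was at 44.6 CPM against 6.40 CPM (6.98-fold, 5.68 to 8.64), with 16.3 CPM in MEF. Dusp4, a phosphatase of ERK, was at 26.6 CPM against 2.24 CPM (11.9-fold, 8.47 to 17.1), with 36.2 CPM in MEF. Ier3, an immediate early gene, was 14.9-fold higher (12.1 to 18.7), at 81.7 CPM against 26.1 CPM in MEF. Dusp6 and Etv4, also targets of this pathway, were at log2 ratios of -0.19 and -0.04.

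Of 9 genes of bone morphogenetic protein signalling, whose Id targets block differentiation in ESC, 5 were at least 2-fold higher and 0 lower (median log2 ratio 1.06), and of the 7 with 100 counts in both libraries 4 were higher. Id1 was at 62.7 CPM against 7.33 CPM (8.55-fold, 7.08 to 10.4), Id2 at 22.3 CPM against 4.16 CPM (5.35-fold, 4.13 to 7.02) and Bmp4, the ligand, at 31.4 CPM against 8.57 CPM (3.66-fold, 3.04 to 4.44). MEF held 29.3, 57.9 and 44.2 CPM of these 3 genes, and only Id1 was above the MEF level.

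Genes of basic cell functions lay close together. None of 26 nuclear genes of the respiratory chain and none of 26 genes of mitosis and the spindle checkpoint was past 2-fold in either direction, and their median log2 ratios were -0.38 and -0.37. Below 0 were 24 and 25 of them. Glycolysis genes had 1 higher and 1 lower of 19 members (median log2 ratio -0.29). The higher one was Slc2a1, the glucose transporter GLUT1, at 944 CPM against 388 CPM (2.43-fold, 2.37 to 2.51). Cholesterol synthesis had 0 higher and 1 lower of 18 members, the latter Mvk, mevalonate kinase, at 13.4 CPM against 30.6 CPM. These medians lay below the median of all members at -0.06. With total counts in place of TMM they were shifted by the same 0.15.

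**Figure D4:**
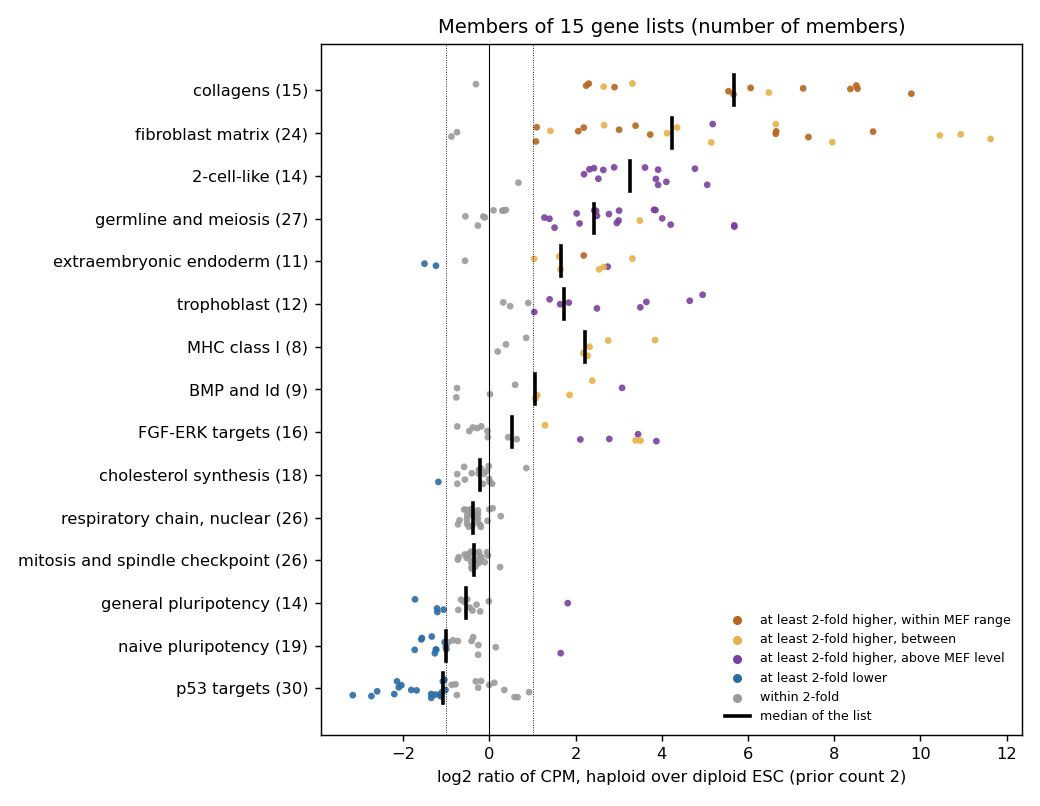
Log2 ratio of haploid over diploid ESC for the members of 15 gene lists, 1 point per gene, with the median of each list as a black bar and dotted lines at 2-fold. Colours mark the higher genes by their relation to the MEF level and the lower genes in blue. The p53 targets have the lowest median, -1.09, and the collagens the highest, 5.66, while the points of the mitosis and respiratory chain lists all stay within 2-fold.

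Among the protein-coding genes with the largest ratios on the lower side, besides Trp73, were genes of several kinds. Cbln1, a secreted synaptic organiser, was at 9.01 CPM in diploid ESC with 3 counts in haploid ESC, a level of 0.150 CPM. Aoah, a hydrolase of bacterial lipopolysaccharide, was at 0.699 CPM against 27.6 CPM, 39.5-fold lower (23.3 to 72.8). Fut9, the fucosyltransferase that makes the ESC surface antigen SSEA-1, was at 1.198 CPM against 32.6 CPM, 27.2-fold lower (18.1 to 42.9), and at 15.3 and 7.89 CPM in haploid EpiSC. Ntn1, the guidance cue netrin 1, was at 4.24 CPM against 93.0 CPM, 21.9-fold lower (17.6 to 27.6), with 97.6 CPM in MEF. Psrc1, a microtubule-associated protein and p53-regulated gene, was at 10.4 CPM against 177 CPM, 17.0-fold lower (14.7 to 19.6). In Psrc1 the libraries labelled wild type other than haploid ESC ranged from 39.0 to 208 CPM and those labelled P53 - from 19.3 to 52.8 CPM.

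Rpl29, a ribosomal protein gene, was at 6.59 CPM in haploid and 200.1 CPM in diploid ESC, 30.4-fold lower (25.5 to 36.4). It was at 171 CPM in the diploid EpiSC labelled P53 - and between 2.01 and 6.95 CPM in the other 7 libraries. Ribosomal protein genes have processed copies that share their reads, so this value is uncertain.

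Some other genes on the higher side that MEF hardly held are named here after their values were seen. Sprr2a3, a cornified envelope protein of epithelia, was at 11.1 CPM without a count in diploid ESC (at least 59.5-fold) and at 0.255 CPM in MEF. Its copy Sprr2a1 was at 6.44 CPM. Gsdmc4, of the pore-forming gasdermin family, was at 29.2 CPM against 0.249 CPM (118-fold, 45.7 to 433) and at 0.128 CPM in MEF. Lmx1a, a LIM homeobox factor, was at 12.7 CPM against 0.186 CPM, 3 counts, a ratio of 68.0 (23.02 to 332).

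Hs3st3b1, a heparan sulfate sulfotransferase that the series title names, was at 7.34 CPM in haploid and 4.78 CPM in diploid ESC, a ratio of 1.53 (1.16 to 2.05), with 9.05 CPM in MEF. In the other libraries it ranged from 0.339 to 9.25 CPM. Of 14 genes of heparan sulfate synthesis and editing that entered, 2 were at least 2-fold higher and 2 lower (median log2 ratio 0.39), shares near the 12.1% and 8.55% of all members. Both higher ones entered through the haploid library alone. Lower were the extracellular sulfatases Sulf1 (2.23-fold, 1.996 to 2.49) and Sulf2 (2.16-fold, 2.03 to 2.28). Higher were Hpse, the enzyme that cleaves heparan sulfate, at 12.6 CPM against 1.74 CPM (7.26-fold, 4.90 to 11.1), and Extl2 (2.22-fold, 1.64 to 3.04).

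The medians of the autosomes lay close together. Over genes with 100 counts in both libraries the median log2 ratio ranged from -0.27 on chromosome 17 (498 genes) and -0.21 on chromosome 7 (764 genes) to -0.03 on chromosome 3 (463 genes). The quartiles on chromosome 17 were -0.65 and 0.10, so that the chromosomes overlapped widely. Restricting to genes whose MEF level was at or below that of diploid ESC lowered the median over all autosomes from -0.11 to -0.30 (5552 genes), with chromosome 17 again the lowest at -0.43. This filter uses the diploid level, which is also the denominator of the ratio, so part of that fall is built in.

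**Figure D5:**
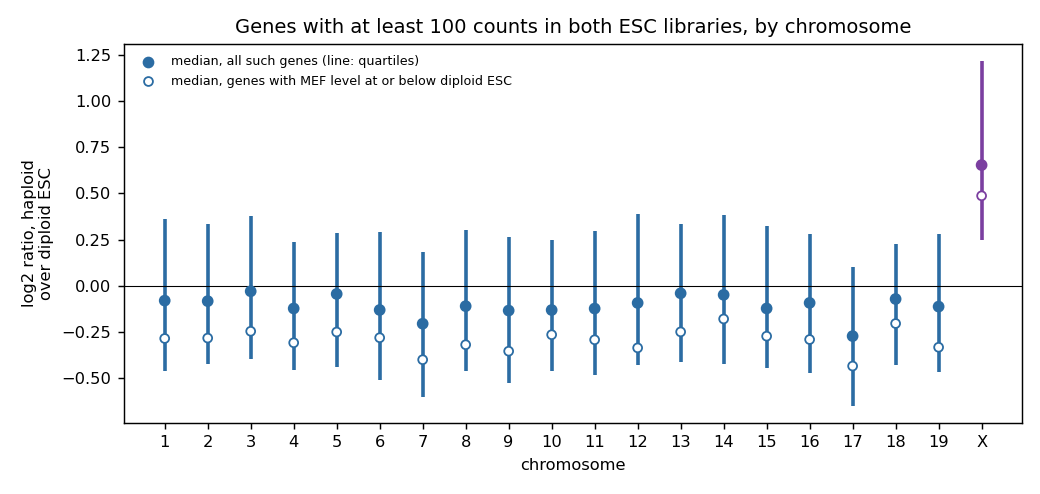
Median log2 ratio of haploid over diploid ESC by chromosome, over genes with at least 100 counts in both libraries (filled points, with a line from the lower to the upper quartile) and over those whose MEF level was at or below the diploid ESC level (open points). The 19 autosomes lie between -0.27 and -0.03 and chromosome X at 0.65.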

How the data were processed

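RNA from 10 libraries of mouse cells was selected with poly-T beads and prepared with the NEBNext Ultra kit, per the labels' protocols. The submitters' processing notes name HISAT2 2.0.5, featureCounts 1.5.0-p3 and the mm10 build; no strand setting is stated there. The authors deposited raw read counts per gene and FPKM values (fragments scaled by gene length and library depth), which equal the counts divided by gene length and a constant of the library to within a relative 1.01e-08. Each column was assigned by its name to 1 of the 8 groups of the labels.

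From the counts, TMM factors (edgeR 4.0.16, R 4.3.3) over all 10 libraries gave CPM, and log2 ratios were taken with a prior count of 2. Exact binomial 95% intervals of the ratio cover counting error only. A count of 0 was set to 3 counts for a bound, and a ratio over 1 to 3 counts is given with its interval. Each of the groups compared holds 1 library, so sizes are given and no test was made; the spread within other cell types was not taken for that of ESC. The calculation was tested on simulated counts.

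Named were Tnc, Lox, Thbs1, Trp53, Cdkn1a and Hs3st3b1, members drawn from the 15 lower and the 10 and 15 higher protein-coding genes of largest ratio (within and outside the MEF range), and from each of 33 lists up to 4 members of largest ratio or its defining members; a few others were named after their values were seen. Of 685 list entries 681 matched a symbol. The members and lists were chosen with earlier results of these data known. Promoter windows came from RefSeq (GRCm38.p6). Alternatives were other scalings (DESeq2 1.42.0 size factors among them), deposited FPKM, prior counts, count minimums, folds, MEF bounds and a subtraction of the MEF level. Results for 2 genes are not reported here.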

Additional observations from a re-analysis of the deposited data

Results flagged for a closer look

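Chromosome X, which the comparison of autosomes leaves out, lay above them. The median log2 ratio of haploid over diploid ESC was 0.92 over 484 X-linked genes with at least 100 counts in either library, and 231 of them (47.7%) were at least 2-fold higher against 12 lower. Above 0 were 88.8% of the X-linked and 46.4% of the autosomal genes. With 100 counts in both libraries the median was 0.65 over 340 genes, and over the 184 of these whose MEF level was at or below that of diploid ESC it was 0.49, beside -0.30 on the autosomes. The filter selects for a high diploid level, so part of the fall from 0.65 to 0.49 is built in. Xist, the RNA that silences 1 X chromosome in female cells, was at 82.3 CPM in the haploid, 23.7 CPM in the diploid and 754 CPM in the MEF library.

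Genes of chromosome Y had counts in the haploid ESC library and none in the diploid one: Ddx3y had 46, Eif2s3y 46, Kdm5d 11 and Uty 14. As a share of the MEF level these were 3.31%, 6.09%, 3.10% and 5.22%. The EpiLC library labelled wild-type haploid, set beside haploid ESC above, held far more of 3 of these genes. Ddx3y was at 46.1 CPM there, Eif2s3y at 47.8 CPM and Uty at 26.5 CPM, but Kdm5d at 0.774 CPM. MEF held 69.4, 37.7, 13.4 and 17.7 CPM of these genes in the same order. Ploidy was taken from the labels and was not tested. The labels do not state the sex of either line, and the part of MEF RNA in these counts was not tested.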

How the results depend on the processing

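With 1 library in each ESC group, intervals cover counting error only and the spread between cultures is unknown. No paired analysis was possible because each group compared holds 1 library. The number of genes at least 2-fold higher was 906 with deposited FPKM, 2645 and 523 with a minimum of 20 and 500 counts, 5364 with no minimum, 529 with 100 counts in both libraries, 232 at an MEF level of at most 1 CPM, 319 at an MEF level of at most that of diploid ESC, and 594 at 4-fold. The number lower was 623 with FPKM, 1641 and 507 with a minimum of 20 and 500 counts, 3213 with no minimum, 198 at an MEF level of at most 1 CPM, and 183 at 4-fold. Genes within the MEF range numbered 35 at 1 times the median quotient and 1049 at the highest quotient of the fibroblast lists, which left 0 between. That highest quotient was 3.51. Genes above it or without a count in MEF numbered 315, against 470 above the MEF level in the main setting. With FPKM the median log2 ratio of collagens was 2.38 and of 2-cell-like genes 1.94; with total counts that of the respiratory chain was -0.23 and of mitosis -0.21. The subtraction of the MEF level, the filters on MEF level and the minimum in both libraries were chosen after seeing the data. The filter against the diploid ESC level selects genes that are high in diploid ESC, which by itself lowers the ratios. The share of the MEF level that was subtracted came from the fibroblast matrix and collagen lists, so the fall of their genes was built in. That subtraction took the collagen median to 0 and reversed 15 genes: H19 (-6.72), Mmp2 (-6.06), Col1a1, Pdgfra and Dlk1 (-4.01 each), Col16a1 (-3.91), Loxl1 (-3.79), Fbln5 (-3.68), Cdkn1c (-2.13), Col1a2 (-1.93), Thbs2 (-1.70), Col6a2 and Col6a3 (-1.42 each), Col6a1 (-0.64) and Pdgfrb (-0.27). Of 204 alternative values of list medians 199 lay within a 95% interval of the median taken over the genes of the list (the full range for the 5 primitive streak genes). So did 14 of 38 autosome medians, over the genes of the autosome. Genes are not replicates and these intervals are wide, so the counts are no measure of robustness. After the MEF subtraction the medians of paternally and maternally expressed imprinted genes changed sign, to -0.08 and -0.14, and still counted as within. Of 3192 values of single genes 2693 lay within the interval for counting error.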

Other observations

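Imprinted genes, which are expressed from the maternal or the paternal copy alone, lay on both sides of 0 in both parental classes. Of 22 paternally expressed genes that entered, 7 were at least 2-fold higher in haploid ESC and 3 lower (median log2 ratio 0.23), and of 20 maternally expressed genes 5 were higher and 1 lower (median 0.12). Of all members 12.1% were higher and 8.55% lower. With 100 counts in both libraries 5 of 18 paternally and 1 of 16 maternally expressed genes were higher, with 2 and 1 lower. Of all members with such counts 5.44% were higher and 7.14% lower, and the maternally expressed genes lay near these shares. The difference between the classes was not tested. H19, a maternally expressed long noncoding RNA, was at 136 CPM in the haploid, 11.6 CPM in the diploid and 8423 CPM in the MEF library, an excess of 0.0147 of the MEF level. Sfmbt2, a paternally expressed Polycomb gene, was at 191 CPM against 46.1 CPM (4.14-fold, 3.82 to 4.48) with 7.01 CPM in MEF. Plagl1, a paternally expressed zinc finger gene, was at 22.5 CPM against 133 CPM, 5.89-fold lower (5.32 to 6.54), although MEF held 642 CPM. Snrpn and Peg3, both paternally expressed, were at log2 ratios of -0.59 and -0.28, and the maternally expressed Meg3 and Igf2r at -0.31 and 0.05. Both parental classes were thus detected in both ESC libraries.

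Of 15 genes of the DNA methylation machinery 3 were at least 2-fold lower and 1 higher, beside 8.55% and 12.1% of all members. Their median log2 ratio was -0.13. Uhrf1, which recruits the maintenance methyltransferase to replicating DNA, was at 299 CPM in haploid and 906 CPM in diploid ESC, 3.03-fold lower (2.94 to 3.12). Trim28 and Zfp57, which protect methylation at imprinted regions, were 2.19-fold and 2.53-fold lower, and Tet3, an oxidase of methylated cytosine, was 2.95-fold higher (2.58 to 3.39). The maintenance enzyme Dnmt1 was at 346 CPM against 581 CPM and the de novo enzyme Dnmt3b at 233 CPM against 247 CPM. Of 20 genes of G1 phase control 6 were lower and 5 higher (median log2 ratio -0.29), and of the 16 with 100 counts in both libraries 6 were lower and 1 higher. Ccnd1, cyclin D1, was at 39.1 CPM against 104 CPM, 2.64-fold lower (2.43 to 2.88), while Ccnd2, cyclin D2, was at 33.7 CPM against 0.497 CPM (67.8-fold higher, 34.2 to 158) with 473 CPM in MEF. Rb1, the retinoblastoma protein, was 3.12-fold lower (2.55 to 3.85).

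Genes of antigen presentation by MHC class I were on the higher side in all 8 members, 5 of them at least 2-fold (3 of the 6 with 100 counts in both libraries), and all 8 were higher in MEF than in haploid ESC. B2m, the common light chain, was at 43.8 CPM against 6.40 CPM (6.85-fold, 5.58 to 8.49) with 499 CPM in MEF. Interferon response genes had 3 higher and 3 lower of 11 members, with log2 ratios from -3.15 to 5.64. Of the 9 with 100 counts in both libraries 1 was higher and 3 lower. MEF exceeded haploid ESC in all 11 members. Ifitm1, Ifitm2 and Ifitm3, a cluster of antiviral membrane proteins, were 9.05-fold (7.36 to 11.2), 3.86-fold (3.55 to 4.20) and 2.89-fold (2.69 to 3.11) lower. In the BCL2 family, Bcl2l11, which encodes the apoptosis inducer BIM, was 2.84-fold higher (2.48 to 3.26). Lower in that family were Bbc3 and Bax, already counted among the p53 targets, and Bid (log2 ratio -1.006).

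The other lists gave the following counts, to be read against 12.1% higher and 8.55% lower of all members. Of 8 neural genes 4 were at least 2-fold higher and 1 lower (2 and 1 of the 6 with 100 counts in both libraries), of 14 genes of the Nodal pathway 3 and 3, of 10 Wnt targets 1 and 2, of 19 Polycomb genes 2 and 1, of 18 genes of the amino acid stress response 3 and 2, and of 13 of the BCL2 family 2 and 3.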
